A study of Rattus norvegicus with 12 samples.

Results

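Of 17301 gene names with FPKM (fragments scaled to transcript length and to the sequencing depth of the sample) in adult rat ventricular myocytes (ARVMs), 10 genes for subunits of heterotrimeric G proteins were examined. The alpha subunits were Gnas, Gnai1, Gnai2, Gnai3, Gnaq, Gna11, and Gna13, the beta subunit was Gnb1, and the gamma subunits were Gng2 and Gng3. They were chosen by symbol, and their 14 transcripts were taken from a list of 18752. Myocytes from the hearts of Sprague Dawley rats were transduced at a multiplicity of infection (MOI) of 50 with an adenovirus for enhanced green fluorescent protein (Ad-GFP, 6 samples) or for human NR4A2, a nuclear receptor that acts as a transcription factor (Ad-h-NR4A2, 6 samples). In the study, the NR4A2 virus used the cytomegalovirus promoter and the rats were male. RNA was taken 48 h later, and the groups share the sample numbers 24 to 29. Both groups therefore carry an adenovirus, and untransduced cells were not analysed here.

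A heterotrimeric G protein passes the signal of a seven-transmembrane receptor to enzymes and channels inside the cell. The receptor makes the alpha subunit exchange GDP for GTP, after which alpha and the tightly bound beta-gamma pair each act on their own effectors. In heart muscle, the Gs alpha subunit stimulates adenylyl cyclase downstream of beta-adrenergic receptors, Gi alpha subunits inhibit it downstream of muscarinic M2 and adenosine A1 receptors, Gq and G11 activate phospholipase C-beta downstream of alpha1-adrenergic, endothelin, and angiotensin receptors, and G12 and G13 activate RhoGEFs and so the GTPase RhoA.

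The depth recovered from the FPKM steps was 19000000 to 28000000 fragments per sample, with medians of 23850000 in Ad-GFP and 23800000 in Ad-h-NR4A2 samples. Nr4a2, counted on the rat transcript, was 0.626 to 1.40 FPKM in Ad-GFP and 445 to 592 in Ad-h-NR4A2 samples, as the labels require. The 5 markers of cardiomyocytes summed to 8368 to 9932 FPKM in Ad-GFP and 7148 to 8223 in Ad-h-NR4A2 samples, and 4 of them were lower and 1, Actn2 (693 and 808 FPKM), was higher at an adjusted p below 0.05. Sums were 9.05 to 30.3 against 5.82 to 26.6 FPKM for 6 fibroblast markers and 15.8 to 26.6 against 10.7 to 21.4 for 5 smooth muscle and pericyte markers, and Col3a1 of the first and Myh11 and Cspg4 of the second were lower by at least 1.5-fold at an adjusted p below 0.05. For 5 endothelial markers, they were 6.43 to 20.4 against 5.33 to 19.6. The 4 leukocyte markers summed to 5.94 to 17.2 against 37.0 to 44.1 FPKM, of which Csf1r alone passed the test. The 6 markers of neurons and Schwann cells, in which several of these subunits are abundant, summed to 2.06 to 3.74 against 1.13 to 2.25 FPKM, with Snap25 listed at 0 in all samples. The part of these marker changes in the results for the subunits was not tested. In bulk RNA, fewer cells of a type and less RNA per cell cannot be told apart.

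With NR4A2, the genes for a gamma and an inhibitory alpha subunit that are scarce in ARVMs, Gng3 and Gnai1, rose 2.87-fold and 2.40-fold, and the barely measured Gng2 rose 2.65-fold by its more abundant transcript and 2.32-fold by the sum of both transcripts, which is the safer value. Gna13 fell to 0.638 of its Ad-GFP level. The abundant Gnas and Gnb1 differed by less than the spread between samples, whereas Gnai2, Gnai3, and Gnaq fell by 13.3% to 21.5%. A gene was called when limma on log2(FPKM + 0.1) gave a Benjamini-Hochberg adjusted p below 0.05 over the 10950 genes tested and the means differed by at least 1.5-fold. By this rule 4 of the 10 genes were called, 3 higher and 1 lower, beside 15.2% of all genes tested (7.94% higher and 7.24% lower). At an adjusted p below 0.05 alone, 7 of 10 passed, 3 higher and 4 lower, beside 40.9% of all genes (19.3% higher and 21.7% lower). The groups did not overlap for 4 of 10, Gng3, Gnai1, Gnai2, and Gna13, beside 21.5% of all genes. The median log2 fold change was -0.08 over the 10 genes and -0.02 over all genes tested. All 10 genes were above 0 in every sample and entered the test.

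**Figure D1:**
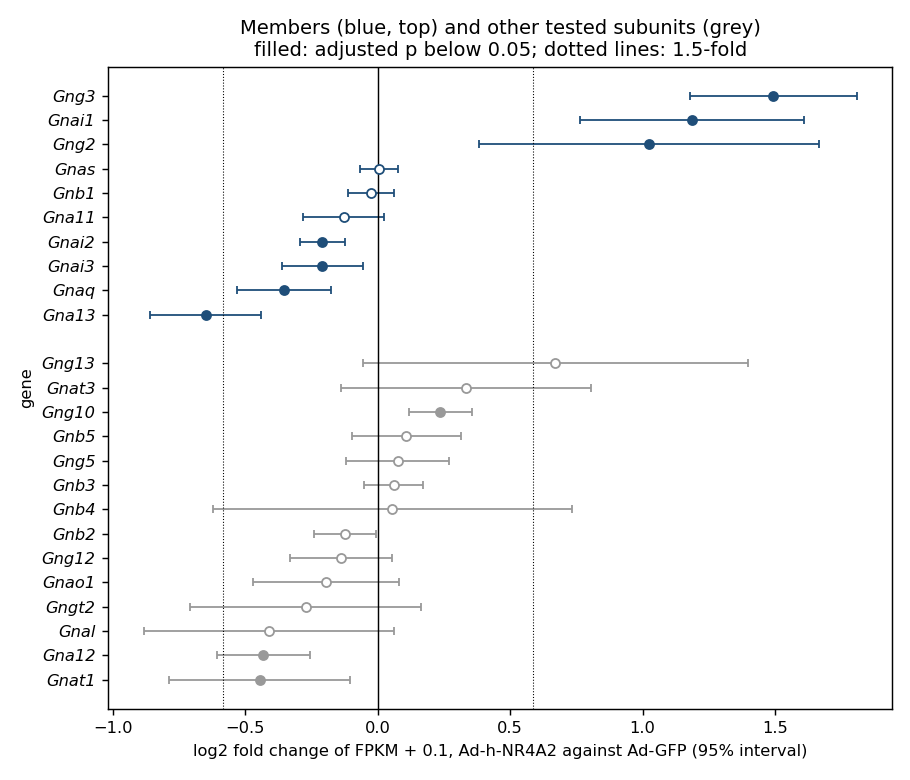
Log2 fold change of FPKM + 0.1 with its 95% interval (x axis) for the 10 genes examined (blue) and 14 other tested subunit genes (grey), one gene per line. Filled points have an adjusted p below 0.05 and dotted lines mark a 1.5-fold change. Gng3 (1.49), Gnai1 (1.19), and Gng2 (1.02) lie to the right and Gna13 (-0.65) lies furthest left, whereas Gnas and Gnb1 sit on the line of no change. Gng2 is shown here by its more abundant transcript, and the sum of its transcripts gave 0.84.

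The stretch upstream of the start is shown for the 4 called genes, because the overexpressed protein is a DNA-binding factor and among the 10 genes these are the ones whose means differed most. Each line holds the 250 bases before the transcript start in RefSeq on GRCr8, 5′ to 3′ on the strand of the gene, with CG dinucleotides in capitals. The Gng3 stretch is chr1:215162719-215162968 on the minus strand, Gng2 is chr15:4365551-4365800, Gnai1 is chr4:17705811-17706060, and Gna13 is chr10:94837206-94837455, these on the plus strand.
Gng3: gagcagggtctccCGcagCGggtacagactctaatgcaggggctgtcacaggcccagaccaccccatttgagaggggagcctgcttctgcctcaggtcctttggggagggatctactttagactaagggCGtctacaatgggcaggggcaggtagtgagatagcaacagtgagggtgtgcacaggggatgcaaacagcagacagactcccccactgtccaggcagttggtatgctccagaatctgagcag
Gng2: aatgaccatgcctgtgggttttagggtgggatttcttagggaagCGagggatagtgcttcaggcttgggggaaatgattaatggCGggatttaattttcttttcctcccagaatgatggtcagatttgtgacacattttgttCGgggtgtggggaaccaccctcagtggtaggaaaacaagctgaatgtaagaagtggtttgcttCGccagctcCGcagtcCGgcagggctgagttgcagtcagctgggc
Gnai1: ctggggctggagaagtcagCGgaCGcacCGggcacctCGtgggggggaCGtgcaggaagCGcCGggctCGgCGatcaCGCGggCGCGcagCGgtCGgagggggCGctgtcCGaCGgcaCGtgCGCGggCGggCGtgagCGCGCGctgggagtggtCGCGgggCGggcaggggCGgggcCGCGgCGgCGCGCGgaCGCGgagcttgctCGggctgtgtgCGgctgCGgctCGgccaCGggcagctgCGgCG
Gna13: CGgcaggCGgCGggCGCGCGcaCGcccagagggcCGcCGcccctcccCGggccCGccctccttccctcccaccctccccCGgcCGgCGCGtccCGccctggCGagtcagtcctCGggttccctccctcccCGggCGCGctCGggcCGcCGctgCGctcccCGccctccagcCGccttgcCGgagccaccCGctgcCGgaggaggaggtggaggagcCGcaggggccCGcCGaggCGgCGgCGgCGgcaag
The 4 stretches did not share a CG content. Gng3 held 3 CG and Gng2 held 6, close to the median of 5 (quartiles 2 and 15) over all 33469 RefSeq windows, whereas Gnai1 held 45 and Gna13 held 37. A window from 250 bases before to 50 bases after the start was available for 8 of the 10 genes, with 10 windows in all, 3 of them for Gnas. The NBRE, the element that NR4A monomers bind, was searched on both strands as AAAGGTCA and, in its shorter form that lies within the longer one, as AAGGTCA. Neither was found in any of the 10 windows. Of all windows, 1.43% and 4.61% held them, so that finding none in 10 is usual and tells nothing about these genes. No other element was searched. Windows of this length leave most regulatory sequence out.

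Levels spanned a wide range, which the plot of the level in each sample shows. In Ad-GFP samples the order of mean FPKM, a value per transcript length, was Gnas, Gnai2, Gnb1, Gna11, Gna13, Gnaq, Gnai3, Gng3, Gnai1, and Gng2. Only Gna13 and Gnaq, among neighbours in this order, had overlapping ranges. In Ad-h-NR4A2 samples, Gng3 moved above Gna13 and Gnai3 and lay between Gnaq and Gna13, and the ranges of Gnaq and Gng3 and those of Gng3 and Gna13 overlapped. Gnaq then ranked above Gna13, and the order of the others was kept.

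**Figure D2:**
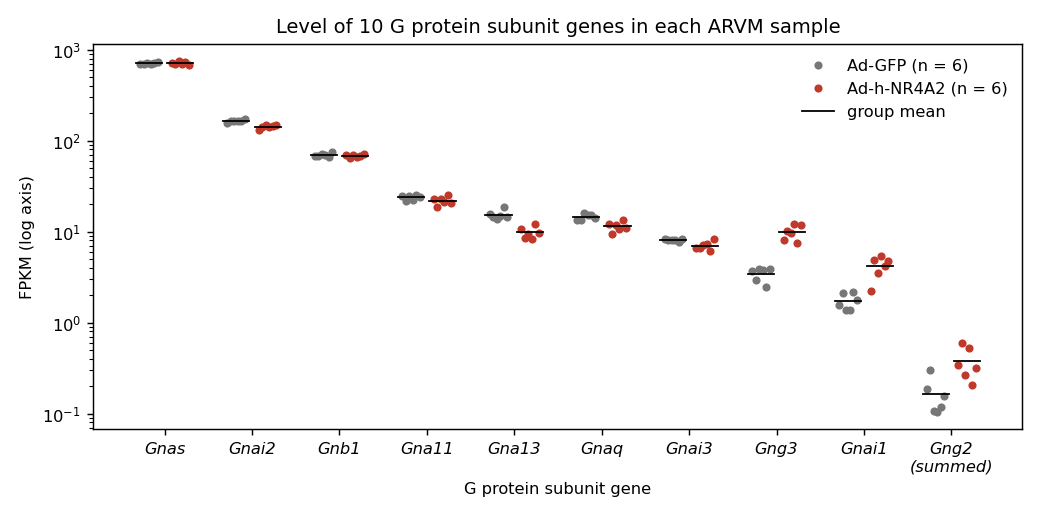
FPKM on a log axis (y axis) of 10 G protein subunit genes (x axis, ordered by the Ad-GFP mean) in the 6 Ad-GFP (grey) and 6 Ad-h-NR4A2 (red) samples, with black lines at the group means and the 2 transcripts of Gng2 summed. Gnas lies near 711 FPKM in both groups, and the red points lie above the grey ones for Gng3 (9.88 against 3.44) and Gnai1 (4.15 against 1.73).

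Gnas encodes the alpha subunit of Gs, and its locus (chromosome 3, 178426255 to 178490285 in Rn5, the build of the files) is known for alternative first exons. Its FPKM, for the transcript of 1055 nt, ran from 691 over a median of 709 to 741 in Ad-GFP and from 685 over 711 to 742 in Ad-h-NR4A2 samples. The groups covered the same range, with 4 of 6 same-numbered pairs higher. The means were 711 ± 18.0 and 714 ± 21.6 (SD, n = 6), and the log2 fold change was 0.01 (SE 0.034, 95% interval -0.068 to 0.078, limma adjusted p = 0.919). This transcript carried 99.9% of the FPKM over the 4 Gnas transcripts in Ad-GFP and 99.8% in Ad-h-NR4A2 samples.

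The minor transcripts of Gnas were scarce. The transcript of 1640 nt ran from 0.246 over 0.397 to 0.543 FPKM in Ad-GFP and from 0.605 over 0.751 to 0.869 in Ad-h-NR4A2 samples, about 8 to 21 and 23 to 35 fragments as Cufflinks assigned them. The ranges did not overlap, and in the fit of all 11667 transcripts above 0 in every sample the log2 fold change was 0.75 (SE 0.146, limma adjusted p = 0.00154). Reads shared among transcripts of one locus are divided by a model, so that this small value is uncertain. The transcript of 3083 nt averaged 0.264 and 0.371 FPKM (adjusted p = 0.549), and the one of 1901 nt stayed at or below 0.0305 FPKM.

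The Gi alpha genes moved in opposite directions. Gnai1 (chromosome 4, 13388070 to 13470279), the scarcest of the 3 Gi alpha genes in these cells, ran from 1.37 over 1.66 to 2.17 FPKM in Ad-GFP and from 2.24 over 4.45 to 5.36 in Ad-h-NR4A2 samples. The groups did not overlap, all 6 pairs were higher, and the smallest rise was in number 24 (1.55 to 2.24). This gave a log2 fold change of 1.19 (SE 0.196, 95% interval 0.77 to 1.61, limma adjusted p = 2.97e-04). These values rest on 51 to 99 against 81 to 223 fragments.

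Gnai2 (chromosome 8, 115726562 to 115746724), the main Gi alpha gene of these cells, ran from 156 over 165 to 174 FPKM in Ad-GFP and from 131 over 143 to 150 in Ad-h-NR4A2 samples. Here too the ranges were apart, all 6 pairs were lower, and the mean fell by 13.4%. The log2 fold change was -0.21 (SE 0.040, limma adjusted p = 8.83e-04), within the 1.5-fold limit. Gnai3 (chromosome 2, 230366027 to 230403981), also a Gi alpha gene, ran from 7.71 over 8.14 to 8.35 FPKM and from 6.17 over 6.89 to 8.28. Its ranges overlapped through Ad-h-NR4A2 sample 29 although all 6 pairs were lower. The log2 fold change was -0.21 (SE 0.071, limma adjusted p = 0.0300). That call was lost with quantile normalization (adjusted p = 0.0504) and when any of Ad-GFP 24, 26, or 29 or Ad-h-NR4A2 24, 25, or 28 was left out, with adjusted p from 0.00633 to 0.0618 over all alternatives.

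As proportions, which are given without a test, the Gi alpha genes summed to 175 ± 5.67 FPKM in Ad-GFP and 154 ± 8.06 in Ad-h-NR4A2 samples (SD, n = 6), and all Ad-h-NR4A2 samples were below all Ad-GFP samples. Gnai1 made up 0.989% ± 0.202 of this sum and then 2.68% ± 0.675, and Gnai2 made up 94.4% ± 0.221 and then 92.8% ± 0.788. Gnai2 thus remained by far the largest, and the sum was lower although Gnai1 rose. The ratio of Gnas to the summed Gi alpha genes was 3.96 to 4.16 in Ad-GFP and 4.20 to 5.14 in Ad-h-NR4A2 samples, with means of 4.07 ± 0.0700 and 4.64 ± 0.310.

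**Figure D3:**
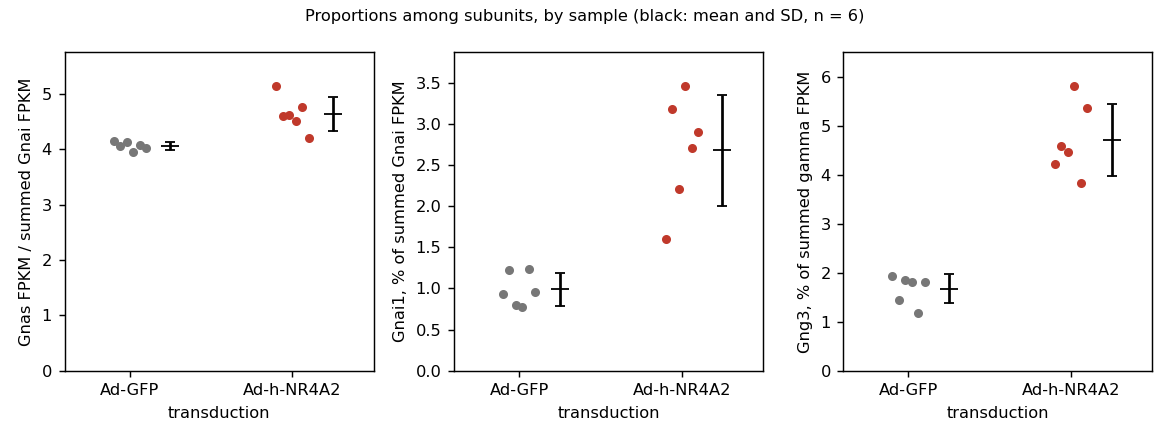
Ratio of Gnas to the summed Gi alpha genes (left), share of Gnai1 in the summed Gi alpha genes in percent (middle), and share of Gng3 in the summed gamma genes in percent (right), for each Ad-GFP (grey) and Ad-h-NR4A2 (red) sample, with mean and SD (black, n = 6). In each panel all red points lie above all grey ones, by the least margin in the left panel (4.20 against 4.16).

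Gnaq and Gna11, whose products couple alpha1-adrenergic and endothelin receptors to phospholipase C-beta, were both lower on average, but only Gnaq passed the test. Gnaq (chromosome 1, 240497178 to 240736860) ran from 13.5 over 14.7 to 16.2 FPKM in Ad-GFP and from 9.51 over 11.5 to 13.6 in Ad-h-NR4A2 samples. The ranges met only at Ad-h-NR4A2 sample 28, and all 6 pairs were lower. The mean fell by 21.5%, with a log2 fold change of -0.35 (SE 0.082, limma adjusted p = 0.00365). Gna11 (chromosome 7, 11200712 to 11214475) ran from 21.9 over 24.3 to 25.2 FPKM and from 18.5 over 21.8 to 25.3. The ranges overlapped widely, although 5 of 6 pairs were lower. The log2 fold change was -0.13 (SE 0.071, 95% interval -0.281 to 0.025, limma adjusted p = 0.168), which did not pass. With the sample number as a block it passed (adjusted p = 0.0182, within 0.0182 to 0.342 over all alternatives). The share of Gnaq in the sum of both was 35.3% to 40.4% in Ad-GFP and 33.6% to 35.1% in Ad-h-NR4A2 samples, with no overlap.

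Gna13 (chromosome 10, 97371692 to 97404320), the G13 alpha gene, was the only subunit among the 10 called lower. It ran from 13.9 over 14.7 to 18.8 FPKM in Ad-GFP and from 8.32 over 9.55 to 12.1 in Ad-h-NR4A2 samples. The ranges were apart and all 6 pairs were lower, with sample 28 the highest of both groups. On the log2 scale the change was -0.65 (SE 0.097, limma adjusted p = 1.36e-04). Without Ad-GFP 28 the ratio of the means was 0.667, just inside the 1.5-fold limit, and 3 rather than 4 genes were called. Values rest on 212 to 404 against 143 to 246 fragments. Gna12, the more abundant gene of this class and not among the 10, fell from 81.8 ± 6.61 to 60.9 ± 7.69 FPKM (log2 fold change -0.43, adjusted p = 8.53e-04), and both together summed to 97.2 ± 7.68 and 70.7 ± 8.74 FPKM (no test) with no overlap between the groups.

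Gnb1 (chromosome 5, 176410631 to 176455111) encodes a beta subunit that pairs with many gamma subunits. Its FPKM ran from 66.3 over 68.2 to 75.1 in Ad-GFP and from 64.3 over 68.6 to 71.1 in Ad-h-NR4A2 samples. The groups overlapped almost fully, and 4 of 6 pairs were lower. It changed by a log2 of -0.03 (SE 0.040, 95% interval -0.112 to 0.061, limma adjusted p = 0.653). Gnb1 made up 32.3% ± 0.618 of the FPKM of the 5 beta genes in Ad-GFP and 32.8% ± 0.928 in Ad-h-NR4A2 samples.

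Gng3 (chromosome 1, 231972086 to 231973852) encodes a gamma subunit best known from neurons and showed the smallest adjusted p of the 10. It ran from 2.44 over 3.74 to 3.92 FPKM in Ad-GFP and from 7.58 over 9.84 to 12.2 in Ad-h-NR4A2 samples. The lowest Ad-h-NR4A2 sample thus lay well above the highest Ad-GFP sample, and sample 28 was lowest in both groups. The mean rose from 3.44 ± 0.618 to 9.88 ± 1.89 FPKM (SD, n = 6), a log2 fold change of 1.49 (SE 0.146, 95% interval 1.18 to 1.81, limma adjusted p = 3.24e-06). The values rest on 54 to 108 against 172 to 274 fragments. Of 3 tested neuron and Schwann cell markers, only Tubb3 passed and was called lower (2.06 to 0.666 FPKM), and Syn1, for example, averaged 0.128 and 0.155 FPKM.

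In Rn5, the next gene to Gng3 is Bscl2, the seipin gene of lipid droplets, 268 bases away with no overlap. Bscl2 rose from 21.6 ± 1.83 to 27.4 ± 1.96 FPKM (log2 fold change 0.34, limma adjusted p = 7.70e-04), a smaller ratio (1.27) than that of Gng3. RefSeq on GRCr8 places both genes on opposite strands. With Gng3 on the minus strand there, and if the order is as in Rn5, the genes lie start to start and their ends point apart. The libraries kept the strand, but whether counting used it is not given in the sources used here. The part of reads from one gene in the value of the other was not tested. Hnrnpul2, 6272 bases away on the other side, differed by a log2 of -0.04 (adjusted p = 0.687).

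Gng2 (chromosome 15, 8845752 to 8944463), a gamma gene often paired with Gnb1 in biochemical work, was near the limit of detection. Its more abundant transcript ran from 7.42e-06 over 0.134 to 0.292 FPKM in Ad-GFP and from 0.201 over 0.326 to 0.590 in Ad-h-NR4A2 samples. The ranges overlapped, and all 6 pairs were higher. The log2 fold change was 1.02 (SE 0.298, limma adjusted p = 0.0141), and it was 0.26 with a pseudocount of 1 and 1.77 with a pseudocount of 0.01. In Ad-GFP 26 the fragments were assigned to the other transcript (0.107 FPKM), which the sum over both takes in. The sum was 0.162 ± 0.0740 and 0.376 ± 0.152 FPKM (SD, n = 6), with a log2 fold change of 0.84 (adjusted p = 0.00843). The endothelial markers moved with Gng2 between samples insofar as number 25 was highest in both groups for each, but none of the 5 passed the limma test between groups, and 0 had an unadjusted p below 0.05. With the block, Kdr was lower (adjusted p = 0.00409). The shared peak was not particular to endothelial markers, since the summed fibroblast markers were also highest in number 25 in both groups (30.3 and 26.6 FPKM). The part of endothelial or other non-myocyte cells in the Gng2 values was not tested.

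**Figure D4:**
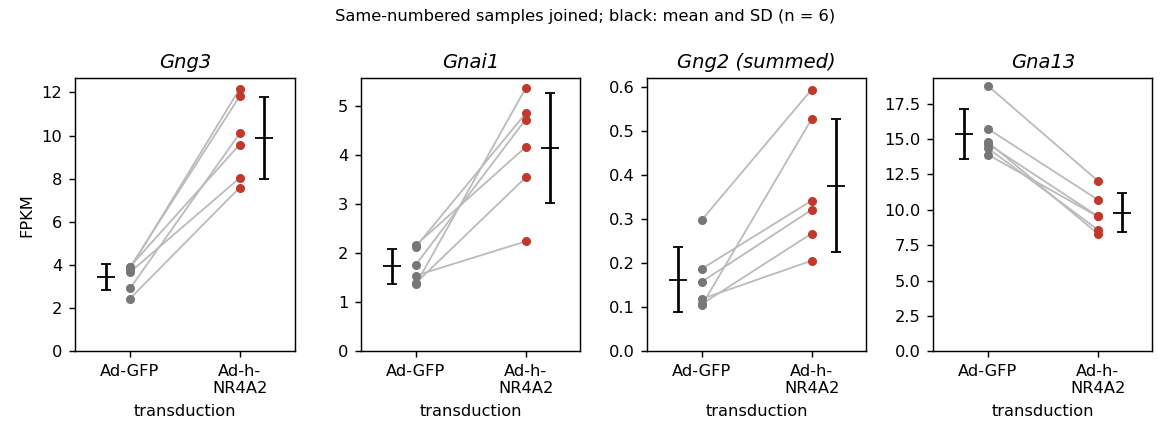
FPKM (y axis, from 0) of the 4 called genes in Ad-GFP and Ad-h-NR4A2 samples, with lines joining the 6 samples of the same number and black bars for the mean and SD (n = 6); Gng2 is the sum of 2 transcripts. All 6 lines rise for Gng3, Gnai1, and Gng2 and all 6 fall for Gna13.

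Exact permutation of the group labels, two-sided and over all 924 assignments, gave p = 0.00216, the smallest possible, for each of the 4 genes without overlap, p = 0.00866 for Gng2, p = 0.00433 for Gnaq, and p = 0.0130 for Gnai3, unadjusted. The same exact test gave p = 0.106 for Gna11, 0.496 for Gnb1, and 0.823 for Gnas. These p-values take the samples as independent. An exact permutation within the 6 same-numbered pairs, chosen after seeing the data, gave p = 0.0312, the smallest its 64 assignments allow, for the 7 genes that passed by the adjusted p, and 0.0625 for Gna11, 0.312 for Gnb1, and 0.938 for Gnas.

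Of 22 other subunit genes listed, 14 were tested. Only Gnat1, the alpha gene of rod transducin, was called with the 1.5-fold limit (0.221 to 0.139 FPKM, adjusted p = 0.0381), beside 15.2% of all genes tested. By the adjusted p alone, 3 of the 14 passed, beside 40.9% of all genes tested. Gna12 and Gnat1 were lower and Gng10, a gamma gene, was higher (34.9 to 41.2 FPKM, log2 fold change 0.24, adjusted p = 0.00374). With the sample number as a block, by which 59.4% of all genes tested passed by p alone and 16.7% passed both limits, 8 of these 14 passed by p alone and 2 passed both. Those added were Gnb2, Gng12, and Gngt2, which were lower, and Gnb5 and Gng13, which were higher, Gng13 also by the fold limit (0.585 to 0.976 FPKM). Without the block, the tested genes other than Gna12, Gnat1, and Gng10 did not pass. Mean FPKM was 99.0 and 90.8 for Gnb2, 35.2 and 36.7 for Gnb3, 11.1 and 12.0 for Gnb5, 70.1 and 73.4 for Gng5, 32.6 and 29.6 for Gng12, 64.1 and 53.0 for Gngt2, and 7.82 and 6.89 for Gnao1. Gnal, Gnat3, Gnb4, and Gng13 averaged below 1 FPKM in both groups. Gng11 was listed at 0 in all samples, and Gnaz, Gnat2, Gna14, Gna15, Gng7, Gng8, and Gngt1 were at 0 in at least 1 sample. Over the 11 gamma genes the summed FPKM was 206 ± 9.03 and 209 ± 12.1, and the share of Gng3 in it was 1.67% ± 0.296 and 4.72% ± 0.737 (SD, n = 6, no test).

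The partners of these subunits were counted by the same rules. Of 22 tested receptor genes known in cardiac myocytes, 13 were called, 6 higher and 7 lower, beside 15.2% of all genes tested. Adrb1, a receptor that couples to Gs, rose from 9.31 to 14.7 FPKM. All 3 alpha1-adrenergic receptors, which couple to Gq, fell, as Adra1a did from 17.4 to 6.53 FPKM, and the endothelin receptor Ednra, of the same coupling, rose from 10.3 to 20.6. The adenosine receptor Adora1 fell from 7.88 to 3.25 FPKM. Adora2a rose from 0.361 to 1.66 and the prostaglandin receptor Ptger3 from 4.42 to 13.8. Coupling is named here for some receptors only, and calls were not counted by coupling. S1pr3, P2ry1, and the glucagon receptor Gcgr fell, and the thrombin receptor F2r rose from 1.05 to 1.80. The fall of Gcgr is for the most abundant of its 3 transcripts only. That transcript was at 4.7e-05 FPKM in Ad-h-NR4A2 27, and its group ranges overlapped.

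The counts of called effectors stand beside 15.2% of all genes tested. Among effectors, Adcy6 was the only one of 6 tested adenylyl cyclase genes called (17.6 to 56.7 FPKM, log2 fold change 1.72). Adcy5, the other main cardiac isoform, fell within the limit from 67.0 to 49.4 FPKM (adjusted p = 5.58e-06). Of 5 tested Gq effectors, Plcb1 (0.978 to 3.16 FPKM) and Plcb4 (23.6 to 42.0) were called higher, and Plcb3 and the RhoGEF Kalrn were lower by the adjusted p alone. None of the 5 genes downstream of G12 and G13 was called. By the limma adjusted p alone, 3 of them were lower, namely Rhoa, with 277 and 226 FPKM, Arhgef12, and Akap13. Of all genes, 40.9% passed by p alone in either direction. With the block, 5 were lower, beside 59.4% of all genes in either direction. Of 8 tested targets and binders of beta-gamma, the atrial potassium channel subunit Kcnj5 (11.2 to 44.7 FPKM) and the receptor kinase Adrbk2 (1.20 to 3.33) were called higher. By p alone, 3 of these 8 passed, beside 40.9% of all genes, and 6 did so with the block, by which 59.4% of all genes passed.

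Chaperones and other modulators of G proteins, receptors aside, formed the last list. Of its genes, 18 were tested and 2 were called, beside 15.2% of all genes tested. The palmitoyltransferase Zdhhc7 was called higher (28.4 to 56.9 FPKM, log2 fold change 0.99) and Gpsm2, which binds Gi alpha in its GDP form, was called lower (1.65 to 0.934 FPKM). By the adjusted p alone, 5 were higher and 6 were lower, beside 19.3% and 21.7% of all genes tested. The Ric8 chaperones of alpha subunits went apart: Ric8a, which serves Gi, Gq, and G13, rose from 27.5 to 33.4 FPKM (log2 fold change 0.28), and Ric8b, which serves Gs, fell from 20.5 to 14.7 (log2 fold change -0.48).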

How the data were processed

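RNA was measured in 12 ARVM samples, 6 per group by the labels, with groups numbered 24 to 29. Per the labels and the methods, stranded mRNA libraries were sequenced in paired ends, aligned to Rn5 with STAR, and quantified with Cufflinks. The authors deposited FPKM per RefSeq transcript, not counts. The deposited start positions were shifted by a base here, to those that a genome browser shows. Of 225024 values, 225016 have limits no different from the FPKM itself, which were not used, and 8 have a failed status.

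Each gene is the one of its transcripts whose mean FPKM is highest. The 10950 genes with no 0 in any sample entered limma 3.58.1 (lmFit, eBayes with trend, in R 4.3.3) as log2(FPKM + 0.1), unpaired as in the study, two-sided, and adjusted by Benjamini-Hochberg. Fold limits are ratios of mean FPKM, and log2 values include the pseudocount, which understates changes of low genes. The fit was tested on simulated data. Other steps used SciPy 1.17.1, NumPy 2.4.6, and pandas 2.3.3 in Python 3.11.15, with Matplotlib 3.10.9 for plots. Whole fragments were recovered from low FPKM of transcripts of at least 800 nt, with a tolerance of 0.05, and cover counting error only. The paper describes ARVMs of different rats. Deviations of same-numbered samples from the group means correlated at 0.347 to 0.623 over 10950 genes, and each of the 12 samples correlated best with its own number, so the numbers were taken as pairs in an alternative fit with a block.

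Named genes are the 10 subunits, other subunits, genes of the fixed pathway lists called with the 1.5-fold limit (1 is not reported here by name), the nearest genes and the 3 most alike genes of each called subunit, and Nr4a2. Ric8a, Ric8b, Adcy5, Plcb3, Kalrn, Rhoa, Arhgef12, Akap13, and the named cell markers were added after their values were seen. Members and lists were chosen with earlier results of these data known. Alternatives were pseudocounts of 1 and 0.01, a minimum mean FPKM of 1, no filter, quantile normalization, the TPM scale, no trend in limma, the block, summed transcripts, every transcript tested by itself, a fold limit of 2, fold from geometric means, and each sample left out. Protein sequences were not used here.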

Additional observations from a re-analysis of the deposited data

Results flagged for a closer look

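In 102 groups of 6 samples (51 genes), 5 single samples lay far from the other samples of their group, with a gap to the nearest sample that, as a share of the group's range, exceeded Dixon's critical value for 6 samples. By chance, about 1 in 20 groups is expected to do so. None concerned the 10 genes of the report. Among other subunits, Gnal was low in Ad-GFP 24 (0.0952 FPKM, others 0.271 to 0.371), Gnb5 was low in Ad-GFP 28 (8.59 FPKM, others 11.0 to 12.0), and Gng10 was low in Ad-h-NR4A2 24 (36.4 FPKM, others 40.7 to 42.9). Among neighbours, Rgs9, beside Gna13, was high in Ad-GFP 28 (0.259 FPKM, others 0.0471 to 0.105), and RGD1304704, beside Gng2, was high in Ad-h-NR4A2 25 (150.5 FPKM, others 134 to 139.7).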

How the results depend on the processing

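The 10 subunit genes gave 3 or 4 calls with the 1.5-fold limit and 6 to 8 by the adjusted p alone under every alternative, leave-one-out included (3 to 4 and 6 to 7). The 8 came from the block, under which 59.4% of all genes passed by p, beside 40.9% without it. Of 219 alternative values of single genes, 205 kept their direction and their side of the threshold. The sign of the Gnas log2 fold change turned on the TPM scale (-0.0137) and with quantile normalization (-0.0332), and ran from -0.00586 to 0.0172 with 1 sample left out, never past the test. The count of other subunits called with the fold limit (1) was 0 with a mean FPKM of at least 1, with a fold limit of 2, and with folds from geometric means. It was 0 or 1 with a sample left out, being 0 without any of Ad-GFP 25, 27, or 28 or Ad-h-NR4A2 25, 26, or 27. The replicate block, which uses the pairing, gave 2 such calls and added Gna11 (adjusted p = 0.0182, of 0.0182 to 0.342 over its alternatives) to the genes that passed by p. It changed no other call among the 10. The cause of these changes was not tested. With a mean FPKM of at least 1, Gng2 was not tested. Over all genes, scaling moved the median log2 fold change from -0.02 to -0.04 at most. Depth limits Gng2 (0 to 19 fragments in Ad-GFP and 18 to 55 in Ad-h-NR4A2 samples), the minor Gnas transcripts, and the scarce subunits, and same-numbered samples were not independent.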

Other observations

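Within groups, some subunit genes varied together over the 12 samples, described as Pearson's r of log2(FPKM + 0.1) centred on the group means. Points of 1 sample share a library and its depth. Same-numbered samples also deviated together across the groups, so the 12 points are not independent, here and for the most alike genes below. The pairs named first were picked because their r was the largest in absolute size among all pairs of the 10 genes. Gnaq and Gna11, the Gq and G11 alpha genes, had r = 0.824. Gnai3 and Gng3 had r = 0.742, although they moved in opposite directions between groups (log2 fold changes of -0.21 and 1.49). Gna13 and Gng3, which moved in opposite directions between groups, also varied in opposite directions within them (r = -0.802), and so did Gnaq and Gng2 (r = -0.839). With the 2 Gng2 transcripts summed, an alternative chosen after seeing the data, the latter was -0.888. Gng3 and Gnai1, both higher with NR4A2, had r = 0.088.

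The genes most alike within groups, by the same measure and among those with a mean FPKM of at least 1, were Wdr13 (0.948), Ttc19 (0.947), and Atp6v0e2 (0.941) for Gng3, and Stk38l (0.892), Fzd9 (0.877), and Atxn10 (0.870) for Gnai1. They were Mreg (0.977), Myo18a (0.931), and Gpr155 (0.930) for Gna13 and Tppp3 (0.894), Chuk (0.884), and RGD1565059 (0.859) for Gng2. Of these genes, all but Wdr13, Mreg, and Chuk changed between groups in the direction of their subunit at a limma adjusted p below 0.05. Among those that did, the log2 fold change was 2.03 for Fzd9 (adjusted p = 3.59e-06) and 1.86 for RGD1565059 (1.55e-07). Myo18a fell with Gna13 (-0.62, adjusted p = 1.18e-04). Likeness within groups did not carry the change between groups with it in each case. Wdr13 had a log2 fold change of -0.09 (limma adjusted p = 0.290), Mreg of -0.15 (0.447), and Chuk of -0.16 (0.179).

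Beside the other called subunits on the chromosome, Amz2 had a mean of 53.6 and 49.9 FPKM (30803 bases from Gna13, adjusted p = 0.104), RGD1304704 of 133 and 139 FPKM (29358 bases from Gng2, adjusted p = 0.195), and Kcnk5 of 0.0828 and 0.0730 FPKM. Magi2, 931566 bases from Gnai1, averaged 0.0468 and 0.0999 FPKM (adjusted p = 0.0153), and Olr987 on its other side was listed at 0 in all samples.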
